A study of Mus musculus with 6 samples.

Results

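The 66 genes described here carry the symbols of factors that start and extend protein synthesis in mouse cells. The kinase, methyltransferases and binding proteins named after those factors are among them. A symbol alone does not show that a gene is such a factor, and Eif2c5 was put in none of the role groups. All are symbols of the deposited expression table that begin with Eif or Eef and a digit. Of 72 such symbols, 6 were left out by the rule: the kinases of eIF2 and the X- and Y-linked copies of its gamma subunit. The whole table lists 26264 symbols. The rule itself uses symbols and no measured value. Of the 66, 60 averaged at least 1 TPM, the length-scaled share of a library's transcripts, over the libraries and were tested. Eef1akmt3 and Eif4a3l1 were above 0 in some libraries but averaged under 1 TPM. Eif4e1b, Eef1akmt4-ece2, Eif3j2 and Eif2c5 were listed at 0 in every library.

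The study asked whether a diet with PLX5622 shifts cholesterol metabolism in astrocytes, and the translation factors were read from the same libraries. RNA bound to tagged ribosomes was pulled down with an anti-HA antibody from homogenised brains of RiboTag mice, in which Cre recombination switches on an HA-tagged ribosomal protein, here with Cre driven by Gfap. All mice of both groups carried the Gfap-Cre and RiboTag alleles. Controls received control diet, and the other group received a PLX5622 diet, with that inhibitor of the receptor Csf1r, on which microglia depend, at 1200 ppm, each for 1 month. There were 3 libraries per group, labelled as biological replicates, and no ages are used here. The sample titles name astrocyte RiboTag RNA. Marker transcripts of neurons and oligodendrocytes, with values given below, were also present in every library, so both groups are read as mixtures rather than pure astrocytes. Because the RNA is bound to ribosomes, each value is the amount of a factor's own mRNA in that pool, not the amount or activity of the protein.

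Translation begins when the initiator tRNA, carried by eIF2 with GTP, joins the small ribosomal subunit together with eIF1, eIF1A, eIF3 and eIF5. The mRNA is brought by the cap-binding complex eIF4F (eIF4E, eIF4A and eIF4G), which the eIF4E-binding proteins hold back when mTORC1 signalling is low. Elongation then needs eEF1A to deliver each aminoacyl-tRNA and eEF2 to move the ribosome along. In astrocytes, as in neurons, local protein synthesis in fine processes depends on these factors.

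The libraries carried patterns that the labels do not explain. The summed level of 13 microglial transcripts, which the diet should lower, was 99.0, 56.7 and 6.84 TPM in control 1, 2 and 3 and 14.0, 1.93 and 28.3 TPM in PLX5622 1, 2 and 3. Control 3 was thus below PLX5622 1 and PLX5622 3, against its label, and PLX5622 3 was the highest of its group. When each gene's fold change in the authors' deposited table was regressed on its log2 TPM in the 6 libraries, control 3 had a weight of 0.536 and PLX5622 3 a weight of -0.364, each with the sign of the opposite group, while the other 4 had the sign of their label. These 2 columns may be exchanged in the expression table or in the comparison, which was not tested. The groups below are those of the labels, so every difference by label and every count of groups that do not overlap carries that doubt. The summed level of 15 astrocyte markers was 29659 to 39700 TPM in controls and 44776 to 49949 TPM on PLX5622. That of 10 oligodendrocyte markers was 3003 to 4390 TPM over all libraries, and that of 6 endothelial markers was at most 5.03 TPM in any library. TPM values have the same sum in every library and carry no sequencing depth, so the depth behind each value is unknown.

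The factors ranged from very abundant to scarce. Of the tested members, 25 averaged at least 100 TPM, 27 between 10 and 100 TPM, and 8 between 1 and 10 TPM. Eef1a1, which delivers aminoacyl-tRNA to the ribosome, was the most abundant at a mean of 2718 TPM, rank 24 among all genes of the table. It alone supplied 25.1% to 29.1% of the members' summed TPM. The sum over all members was 10650, 9268 and 10602 TPM in control 1 to 3 and 9149, 10104 and 9933 TPM in PLX5622 1 to 3, or 0.915% to 1.07% of all TPM. The groups' sums overlapped, with control 2 and PLX5622 1 lowest and control 1 and control 3 highest.

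**Figure D1:**
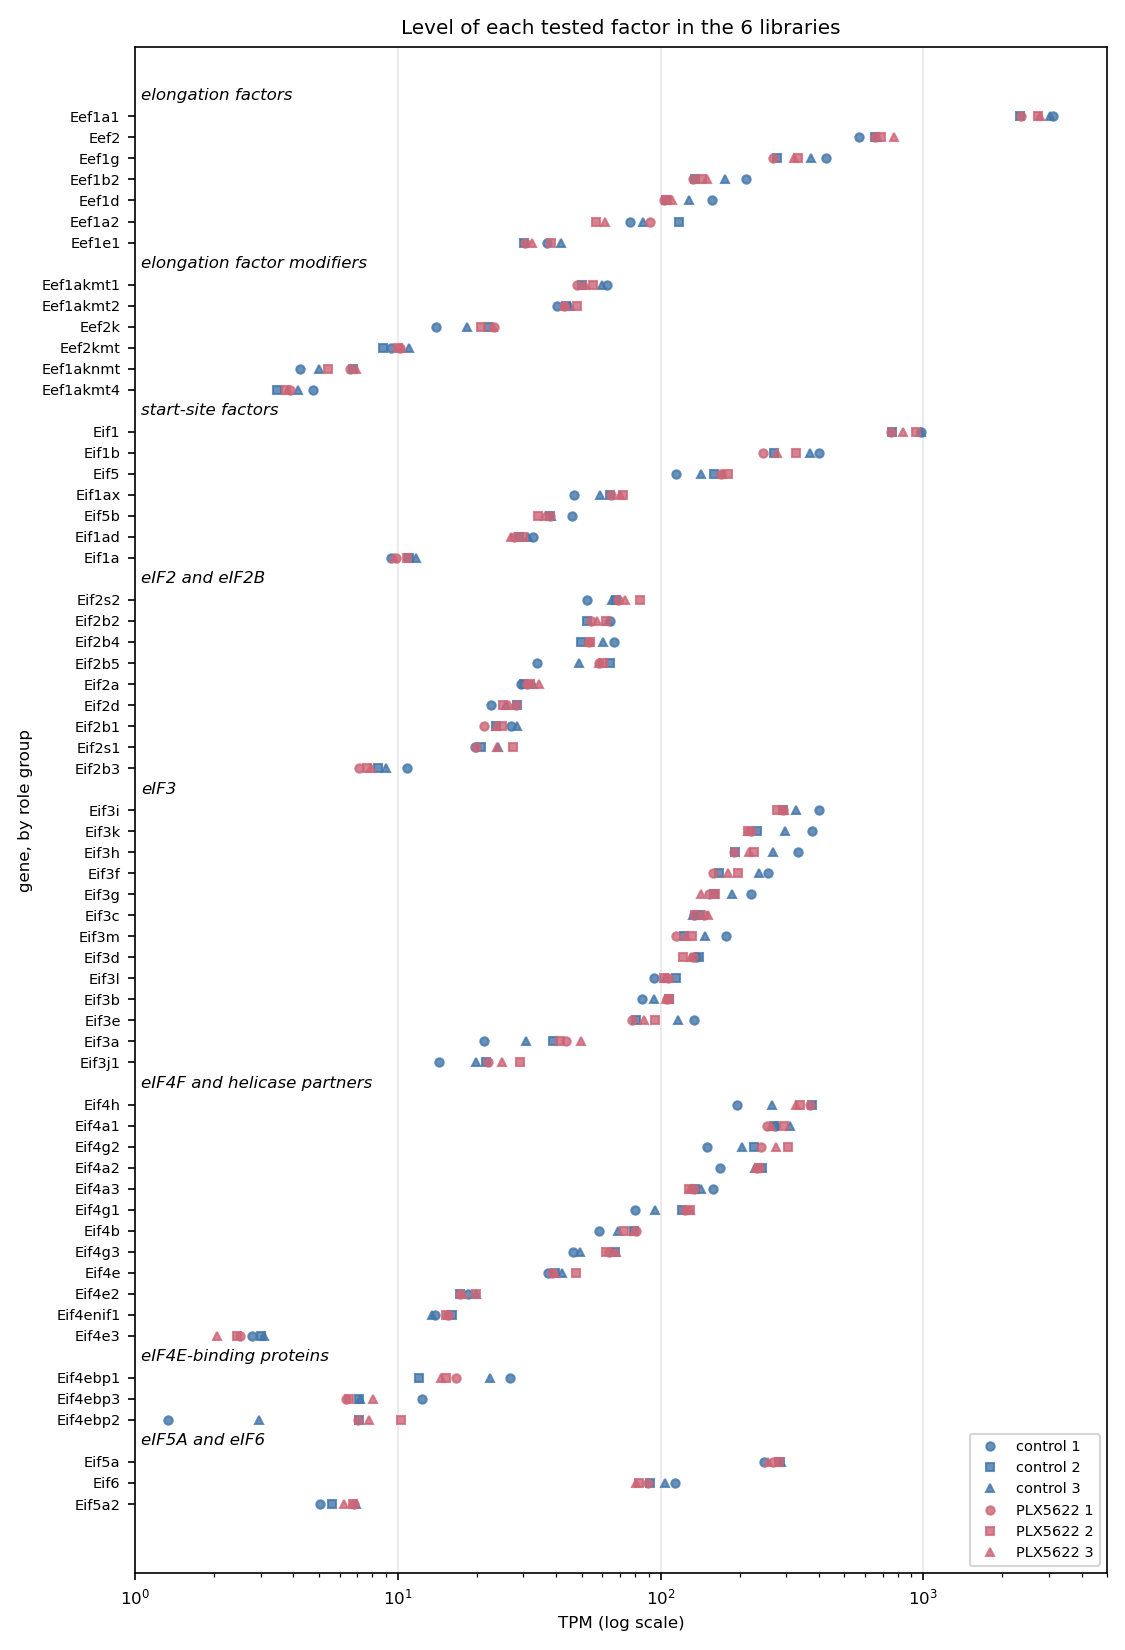
Level of each tested factor in the 6 libraries, in TPM on a log scale, with 1 point per library, colour for the group, and factors ordered by role and by mean level. Eef1a1 is at the top of the elongation factors with a mean of 2718 TPM, and the low end of the plot holds Eif4e3 at 2.65 TPM and Eef1akmt4 at 3.96 TPM.

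No factor differed between the groups of the labels at the threshold. By limma on log2(TPM + 1), with Benjamini-Hochberg adjustment over 13084 genes, 0 of 60 members were called higher and 0 lower on PLX5622. The same was true of the whole table, where 0% of genes were called in either direction, and the smallest adjusted p of a member in limma, to 3 digits, was 0.205, for Eif4ebp2, Eif3a, Eif3k, Eif4g2, Eif4g1 and Eif3j1. At an unadjusted limma p under 0.05, 6 members were higher (10%) against 14.7% of all genes, and 1 was lower (1.67%) against 8.02%. All 3 PLX5622 libraries were above all 3 controls for 7 members (11.7%: Eif5, Eif1ax, Eif4g2, Eif4g1, Eif3a, Eif3j1 and Eif2s2), against 19.4% of all genes. They were below all 3 controls for 6 members (10%: Eif6, Eif4a3, Eif4e3, Eif3k, Eif3d and Eif2b3), against 9.39% of all genes. Log2 differences, here PLX5622 minus control, were positive for 27 members and negative for 33, with a median of -0.06, while the median over all tested genes was 0.09. They ran from -0.45 for Eif3k to 1.14 for Eif4ebp2. Several of the larger differences were nearer 0 without control 1, at 0.37 for Eif3a, -0.28 for Eif3k, 0.34 for Eif4g2, 0.25 for Eif4g1, 0.27 for Eif3j1, 0.20 for Eif5, 0.17 for Eif2s2, -0.17 for Eif1b, -0.08 for Eef1g and 0.15 for Eef2k. The sign was kept in all 6 fits that left out 1 library for 50 of the 60 members.

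**Figure D2:**
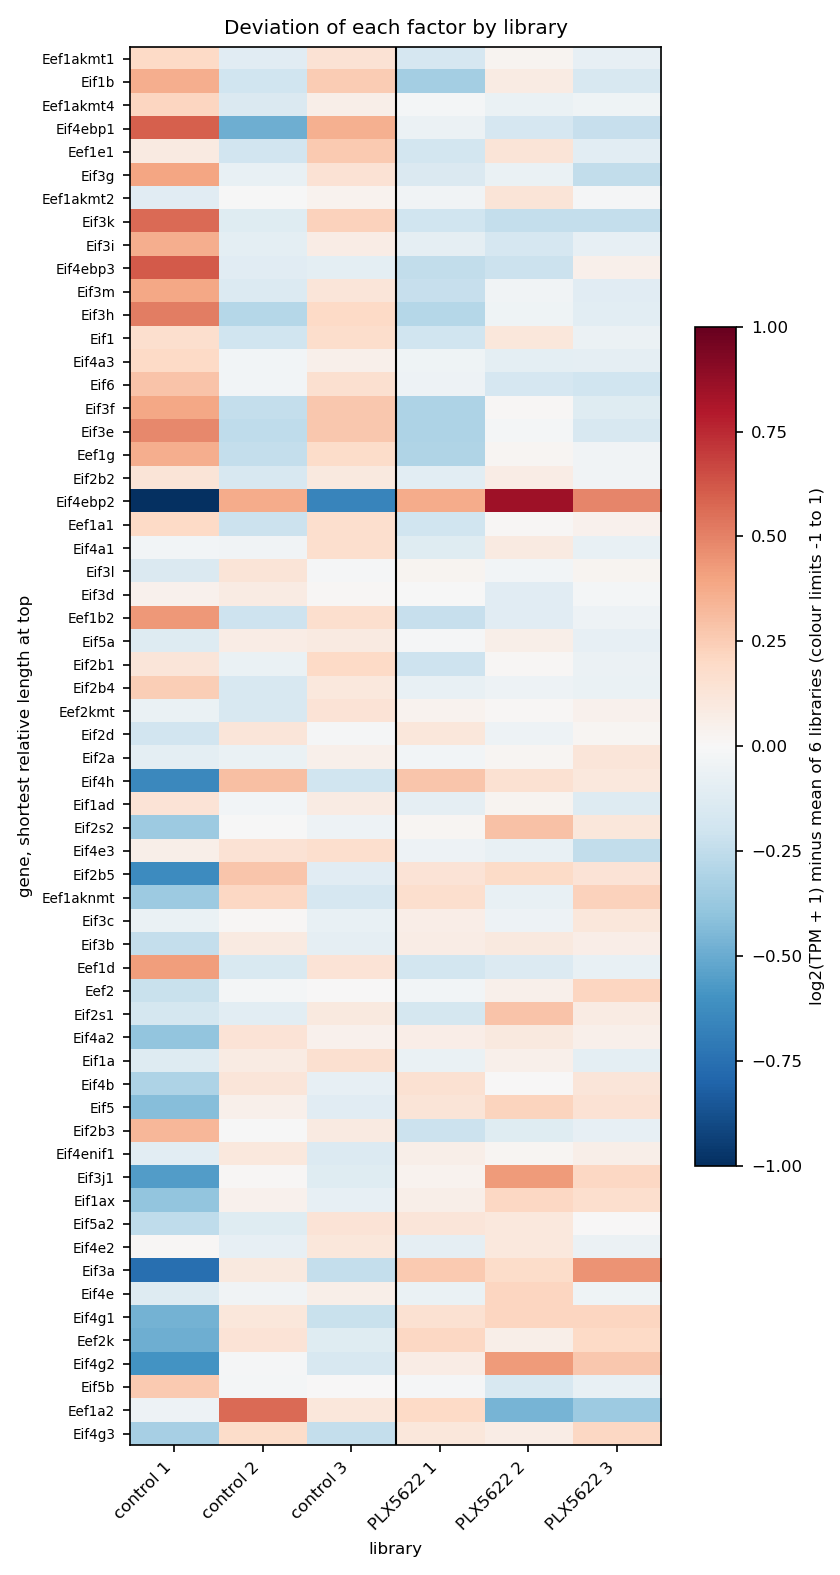
Log2(TPM + 1) of each tested factor in each library minus its mean over the 6 libraries, as colour, ordered from the shortest relative length (authors' mean normalised count over mean TPM) at the top and values past the colour limits drawn at the limit. Control 1 and control 3 carry the opposite colour to the other 4 libraries in many small eIF3 subunits, such as Eif3k and Eif3h, and in long-gene factors such as Eif4g1 and Eif3a.

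The 7 genes grouped by symbol as elongation factors, Eef1e1 among them, had 6 negative differences and 1 positive one. Their median was -0.21, or -0.09 without control 1, and 0 passed the test. Eef1a1 stood at 3101, 2324 and 3027 TPM in control 1 to 3 and at 2355, 2721 and 2782 TPM in PLX5622 1 to 3. Its groups overlapped, and its log2 difference was -0.10 ± 0.16 (SE, n = 3 per group). Eef2, the factor that moves the ribosome by a codon, had the positive value of the group. It stood at 569, 657 and 667 TPM in control and 655, 688 and 774 TPM on PLX5622, a difference of 0.16 ± 0.13 with overlapping groups. Eef1g, with Eef1b2 and Eef1d a subunit of the complex that reloads eEF1A with GTP, stood at 424, 278 and 374 TPM in control and 267, 333 and 321 TPM on PLX5622, a difference of -0.21 ± 0.17. Control 1 was the highest library for Eef1g, Eef1b2 and Eef1d, and PLX5622 1 the lowest.

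Eef1a2, the eEF1A form of neurons and muscle, had the most negative value of the elongation factors. It stood at 76.5, 118 and 85.4 TPM in control and at 90.8, 56.9 and 61.3 TPM on PLX5622, a difference of -0.42 ± 0.21 (limma adjusted p = 0.25). PLX5622 2 and 3 were below every control, and PLX5622 1 was not. The summed level of 13 neuronal markers ran the same way, at 1899, 2238 and 1970 TPM in control and 1763, 1155 and 1200 TPM on PLX5622, with all 13 negative and a median of -0.54. The part of the neuronal RNA in the value of Eef1a2 was not tested. In such mixed RNA, fewer cells of a type and less RNA per cell cannot be told apart.

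Of the 8 modifiers of elongation factors, 6 were tested, with 4 positive and 2 negative differences and a median of 0.06. Eef2k, the kinase that inhibits eEF2, stood at 13.9, 22.0 and 18.3 TPM in control and 23.2, 20.8 and 23.1 TPM on PLX5622, a difference of 0.31 ± 0.17. Its groups overlapped through control 2. The most abundant lysine methyltransferases of eEF1A were Eef1akmt1, at 57.5 ± 6.5 (SD) TPM in control and 51.6 ± 3.6 TPM on PLX5622, and Eef1akmt2, at 43.0 ± 2.4 and 44.8 ± 2.9 TPM. Both had overlapping groups.

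Among the 7 genes grouped by symbol as start-site factors, Eif1ad and Eif5b among them, 2 differences were positive and 5 negative, with a median of -0.10. Eif5, which triggers GTP hydrolysis by eIF2 at the start codon, stood at 115, 160 and 143 TPM in control and 169, 181 and 171 TPM on PLX5622. All 3 PLX5622 libraries were above the controls, with a difference of 0.33 ± 0.14 (limma adjusted p = 0.213). Eif1, which guards start-codon choice, stood at 976, 758 and 979 TPM in control and 755, 941 and 835 TPM on PLX5622, a difference of -0.10 ± 0.15. Its close relative Eif1b stood at 399, 270 and 369 TPM in control and 244, 327 and 277 TPM on PLX5622, a difference of -0.28 ± 0.17. Both genes overlapped between groups, with control 1 and control 3 the highest libraries.

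The 9 genes of eIF2, its exchange factor eIF2B and the related Eif2a and Eif2d had 5 positive and 4 negative differences, with a median of 0.05. Eif2s2, the beta subunit of eIF2, stood at 52.4, 67.4 and 65.4 TPM in control and 68.6, 83.1 and 73.1 TPM on PLX5622. Its groups did not overlap, with a difference of 0.28 ± 0.14. The eIF2B subunits went both ways. Eif2b5, the catalytic subunit, stood at 33.9, 64.4 and 48.9 TPM in control and 58.1, 60.3 and 58.1 TPM on PLX5622, a difference of 0.30 ± 0.20 that was 0.07 without control 1. Eif2b3, a second subunit of the catalytic subcomplex, stood at 10.8, 8.38 and 9.03 TPM in control and 7.11, 7.64 and 7.87 TPM on PLX5622, a difference of -0.28 ± 0.14 with every PLX5622 library lower. The regulatory subunits Eif2b2 and Eif2b4 averaged 58.8 and 56.2 TPM, with differences of -0.04 ± 0.13 and -0.13 ± 0.13.

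The eIF3 complex, the scaffold that binds the small ribosomal subunit, had 13 tested of 14 subunit genes, and 0 passed the test. Differences were positive for 5 and negative for 8, with a median of -0.23 that was -0.10 without control 1 and -0.07 after a correction for gene length described with the length values. Eif3k, a peripheral subunit, stood at 376, 233 and 297 TPM in control and 221, 216 and 215 TPM on PLX5622. Each PLX5622 library was below each control, with a difference of -0.45 ± 0.17 (limma adjusted p = 0.205). Eif3h stood at 332, 191 and 267 TPM in control and 190, 226 and 217 TPM on PLX5622, a difference of -0.29 ± 0.19 that was -0.10 without control 1, -0.50 without control 2 and -0.12 after the length correction. Eif3i, the most abundant subunit gene, stood at 399, 291 and 328 TPM in control and 292, 277 and 294 TPM on PLX5622, a difference of -0.23 ± 0.14 that was -0.10 without control 1 and -0.03 after the length correction. The groups of Eif3h and Eif3i overlapped through control 2, which lay at the level of the PLX5622 libraries.

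Eif3a, the largest subunit and the platform on which the others assemble, went the other way. It stood at 21.2, 39.0 and 30.7 TPM in control and 43.8, 41.3 and 49.9 TPM on PLX5622, a difference of 0.59 ± 0.20 (limma adjusted p = 0.205). Eif3j1, a loosely bound subunit, stood at 14.3, 21.7 and 19.8 TPM in control and 22.1, 29.2 and 25 TPM on PLX5622, a difference of 0.44 ± 0.18. For both, all 3 PLX5622 libraries were above all 3 controls. The balance of subunit mRNAs differed between libraries. The ratio of Eif3h to Eif3a TPM was 15.7, 4.90 and 8.71 in control and 4.35, 5.48 and 4.34 on PLX5622, highest in control 1 and next in control 3. Control 2 fell within the range of the PLX5622 libraries.

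**Figure D3:**
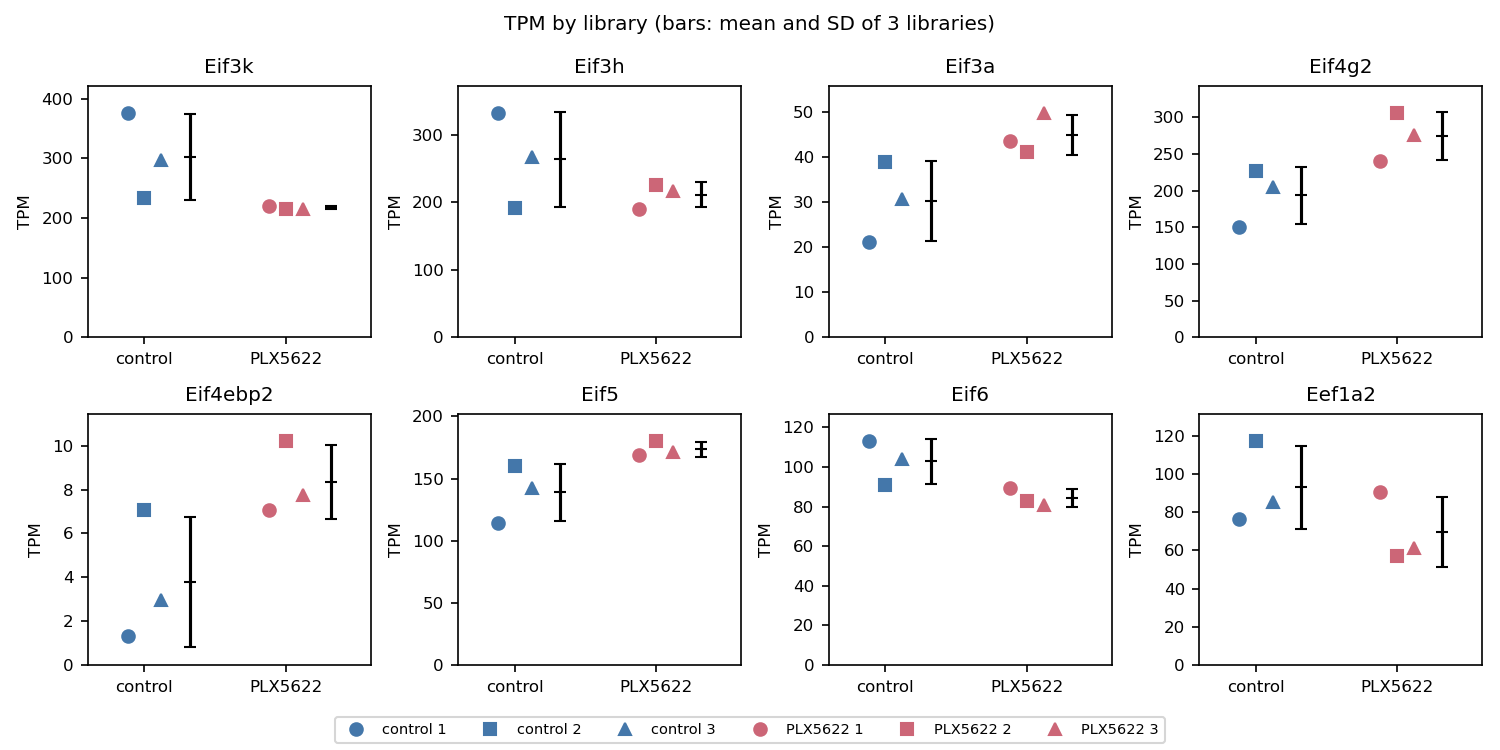
TPM of selected factors in each of the 6 libraries, with 1 point per library, bars for each group's mean and SD (n = 3), and each axis from 0. Eif3k and Eif3a show opposite orders of the controls: control 1 is the highest library for Eif3k at 376 TPM and the lowest for Eif3a at 21.2 TPM.

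The 14 genes grouped by symbol as the cap-binding complex and its helicase partners included Eif4a3, Eif4e2 and Eif4enif1. Among the 12 tested, 8 differences were positive and 4 negative, with a median of 0.12 that was 0.04 without control 1. After the length correction 6 were positive and 6 negative, with a median of -0.01. Eif4g2, an eIF4G relative that cannot bind eIF4E, stood at 150, 226 and 204 TPM in control and 240, 306 and 276 TPM on PLX5622. The groups did not overlap, with a difference of 0.51 ± 0.17 (limma adjusted p = 0.205). Eif4g1, the main scaffold, stood at 79.9, 120 and 95 TPM in control and 124, 129 and 129 TPM on PLX5622, a difference of 0.39 ± 0.15 without overlap. Control 2 lay close to the PLX5622 libraries for Eif4g1. For Eif4g2 it was the highest control, at 226 TPM, and close only to PLX5622 1 at 240 TPM.

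Eif4h, which stimulates the helicase, was the most abundant of these genes. It stood at 195, 376 and 266 TPM in control and 370, 340 and 329 TPM on PLX5622, a difference of 0.36 ± 0.21 that was 0.13 without control 1. The helicases differed less: Eif4a1 stood at 285 ± 23.3 (SD) TPM in control and 271 ± 21.5 TPM on PLX5622, and Eif4a2 at 213 ± 40.0 and 233 ± 3.8 TPM. Eif4e3, a cap-binding relative of eIF4E, was scarce at 2.79, 3.02 and 3.09 TPM in control and 2.5, 2.44 and 2.06 TPM on PLX5622. All PLX5622 libraries were below the controls, with a difference of -0.25 ± 0.13.

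The 3 eIF4E-binding proteins, which block assembly of the cap-binding complex, had 1 positive and 2 negative differences, and 0 passed the test. Eif4ebp2 is the predominant form in brain, but in these libraries its mean of 6.07 TPM was the lowest of the 3. Eif4ebp1 averaged 17.9 TPM and Eif4ebp3 7.93 TPM. Eif4ebp2 stood at 1.34, 7.08 and 2.96 TPM in control and 7.07, 10.2 and 7.75 TPM on PLX5622, a difference of 1.14 ± 0.37 (limma adjusted p = 0.205). Control 2 was just above PLX5622 1, so the groups overlapped. The difference was 0.71 without control 1 and 1.61 without control 2. Eif4ebp1 stood at 26.8, 12 and 22.4 TPM in control and 16.6, 15.3 and 14.6 TPM on PLX5622, a difference of -0.31 ± 0.25. It was -0.08 without control 1, -0.63 without control 2 (limma adjusted p = 0.0084) and -0.08 after the length correction. The fit without control 2 called 19.9% of all genes higher and 8.82% lower, and it also called Eif4ebp2 (limma adjusted p = 0.0017). Eif4ebp3 stood at 12.3, 7.09 and 7.18 TPM in control and 6.37, 6.52 and 8.05 TPM on PLX5622, a difference of -0.27 ± 0.21 that was -0.03 without control 1. Both had overlapping groups.

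Eif6, which keeps the large ribosomal subunit from joining early, stood at 113, 90.9 and 104 TPM in control and 89.6, 82.8 and 80.8 TPM on PLX5622. Its groups did not overlap, with a difference of -0.28 ± 0.12 (limma adjusted p = 0.222). Eif5a, the hypusine-bearing factor that helps stalled ribosomes, stood at 273 ± 23.1 (SD) and 269 ± 13.3 TPM, and its scarce paralog Eif5a2 at 5.85 ± 0.96 and 6.59 ± 0.33 TPM. Differences were -0.02 ± 0.12 and 0.16 ± 0.15 (SE), with overlapping groups.

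Within 4 pairs of close paralogs the ratio of TPM in a library does not depend on how that library was scaled. Eif1b to Eif1 was 0.409, 0.356 and 0.377 in control and 0.324, 0.348 and 0.332 on PLX5622. All PLX5622 ratios were lower, with a log2 difference of -0.19 (exact two-sided permutation p = 0.1, the smallest that 3 against 3 allows, and 0.4 adjusted over the 4 pairs). Eif4a2 to Eif4a1 was 0.618, 0.899 and 0.734 in control and 0.914, 0.804 and 0.873 on PLX5622, a difference of 0.22 (exact p = 0.3, adjusted 0.4). Eef1a2 to Eef1a1 was 0.0247, 0.0506 and 0.0282 in control and 0.0385, 0.0209 and 0.0220 on PLX5622, a difference of -0.33 (exact p = 0.5, adjusted 0.5). Eif5a2 to Eif5a was 0.0204, 0.0197 and 0.0240 in control and 0.0254, 0.0239 and 0.0243 on PLX5622, a difference of 0.21 (exact p = 0.2, adjusted 0.4). Differences between single PLX5622 and control libraries ran from -0.34 to -0.04 for Eif1b to Eif1 and from -1.27 to 0.64 for Eef1a2 to Eef1a1.

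**Figure D4:**
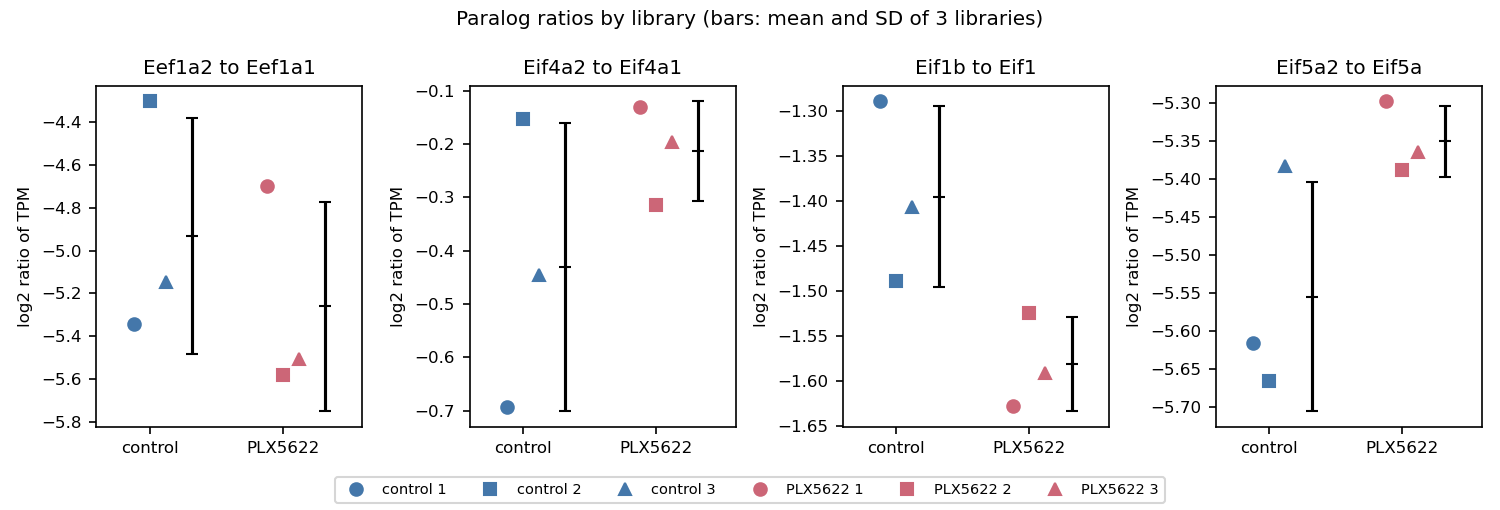
Log2 ratio of TPM between paralogs in each library, not corrected for length, with 1 panel per pair and bars for each group's mean and SD (n = 3). The Eif1b to Eif1 ratios do not overlap between groups, from -1.63 to -1.52 on PLX5622 and from -1.49 to -1.29 in control; the other 3 pairs overlap.

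The split of the members followed a length implied by the deposited values. Dividing the authors' mean normalised count by the mean TPM, and setting Eef1a1 to 1, gives a relative gene length as the authors' quantification used it. Among the 20 shortest members, from 0.476 to 0.969, 2 differences were positive and 18 negative, with a median of -0.24. The 20 in the middle, from 1 to 1.69, had 10 of each and a median of -0.00. Among the 20 longest, from 1.72 to 4.75, 15 were positive and 5 negative, with a median of 0.16. Across the 60 members the log2 difference and log2 relative length had a Pearson r of 0.461 and a Spearman rho of 0.574, and across 13083 genes 0.443 and 0.480. Members share libraries and are not replicates, so these are descriptions. Eif4ebp2 was short at 0.969 and had the most positive difference, and Eef1a2 was long at 4.42 and had a negative one.

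The relation belonged to libraries as well as groups. Each member's value in a library, less its 6-library mean, correlated over members with log2 relative length at -0.541, 0.533 and -0.466 in control 1, 2 and 3 and at 0.564, 0.202 and 0.427 in PLX5622 1, 2 and 3. Control 2 thus had the sign of the PLX5622 libraries. Control 1 and control 3 were the 2 highest libraries for 24 of 60 members, against 15.9% of all genes, and the 2 lowest for 18, against 37.2% of all genes. After a loess correction for relative length in each library, the medians of the short, middle and long members were -0.06, -0.02 and 0.02. Values after this correction were 0.38 for Eif3a, 0.28 for Eif4g2, 0.17 for Eif4g1, -0.25 for Eif3k, -0.65 for Eef1a2 and 1.19 for Eif4ebp2. What sets the length trend of a library was not tested.

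**Figure D5:**
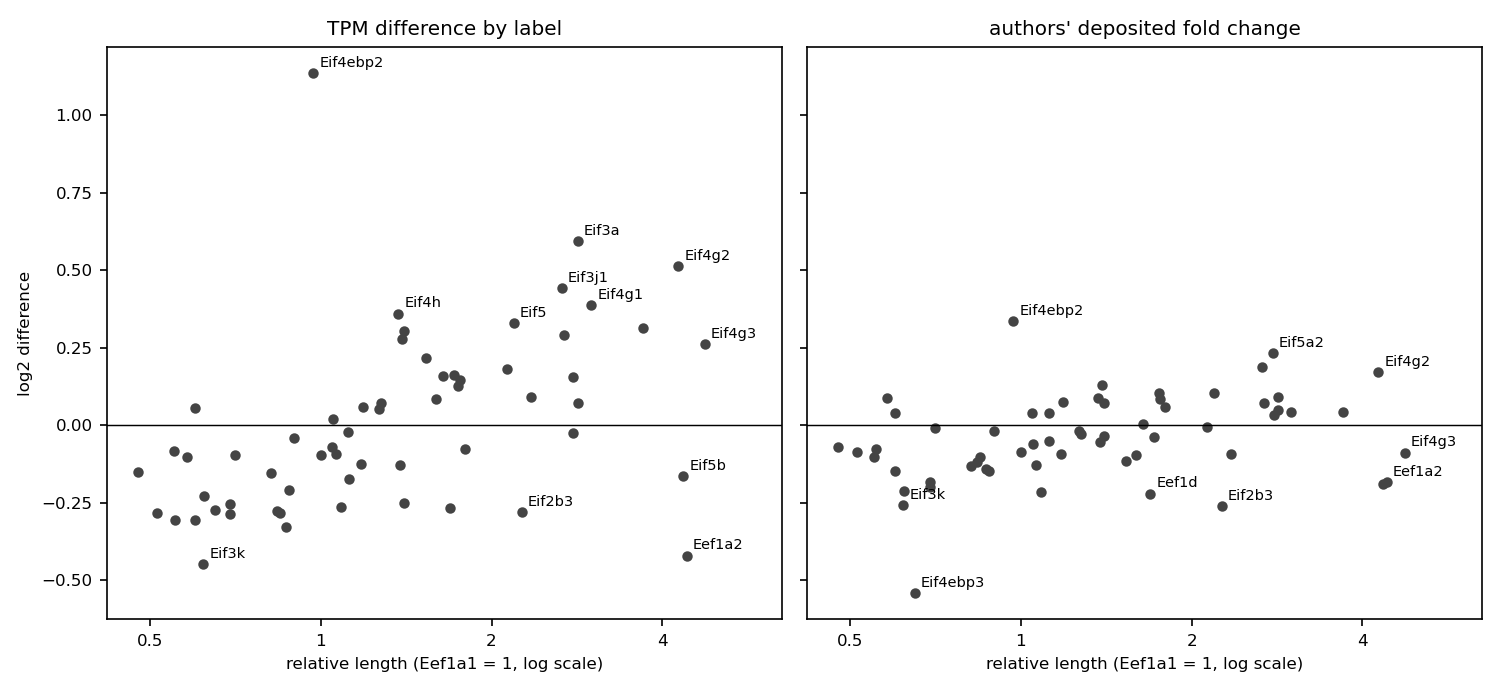
Log2 difference of the 60 tested members against relative length (Eef1a1 = 1, log scale), by label from TPM on the left and as the authors' deposited fold change on the right. On the left most short members lie below 0 and most long ones above, with Eif4ebp2 at 1.14 and Eef1a2 at -0.42 outside the trend. On the right the spread is smaller, and the Pearson r with log2 relative length is 0.328, against 0.461 on the left.

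The authors' deposited table, whose fold changes were computed with DESeq2 and are taken here as lower on PLX5622 where negative, called 0 members of 62 in either direction, against 0% of 20062 genes higher and 0.0698% lower. At an unadjusted p under 0.05 the authors' deposited table held 0 members, against 0.847% of genes. Eif4ebp3 had the smallest member p in the authors' deposited table, at 0.0855, with a log2 fold change of -0.54 (95% interval -1.16 to 0.08). In the authors' deposited table Eif3a stood at 0.05 (-0.49 to 0.59), Eif4g2 at 0.17 (-0.29 to 0.64), Eif3k at -0.26 (-0.87 to 0.35) and Eif4ebp2 at 0.34 (-0.74 to 1.41). Those intervals are wide enough to hold 0 and also the values by label of Eif4g2, Eif3k and Eif4ebp2. The authors' deposited table gave 37 members a negative value and 25 a positive one, with a median of -0.04, beside -0.01 for the tested genes. Across the 60 tested members these fold changes and log2 relative length had a Pearson r of 0.328 and a Spearman rho of 0.372.

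Many mRNAs of the translation machinery begin with a terminal oligopyrimidine tract, through which mTORC1 and Larp1 control them together. A list of 10 members known from human cells to start this way held Eef1a1, Eef1a2, Eef1b2, Eef1d, Eef1g, Eef2, Eif3e, Eif3f, Eif3h and Eif4b. By label 2 of these had positive differences and 8 negative, with a median of -0.26, and 0 passed the test. The median was -0.11 without control 1 and -0.39 without control 2. The other 50 tested members had 25 of each and a median of -0.00. After the length correction the medians were -0.15 and 0.01. All 10 were negative in the authors' deposited table with a median of -0.14, and the others had 27 negative and 25 positive values with a median of -0.01. No length correction was made to the deposited fold changes.

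The 30 bases around the annotated start, from 5 before it to 25 from it on, are printed for 6 of the list. They are also printed for 4 members outside it that the results turn on. They come from RefSeq on GRCm38.p6, on the gene's strand, with capitals marking runs of at least 5 C or T that begin with C. The first 6 are of the list.
Eef1a1, chr9:78481700-78481729, minus strand: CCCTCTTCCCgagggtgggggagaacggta
Eef1a2, chr2:181156991-181157020, minus strand: tctgcgttctcgctcactggttCTCTCCCT
Eef1b2, chr1:63176826-63176855, plus strand: gttccgccggaagtagccgaggccttgcgt
Eef2, chr10:81176626-81176655, plus strand: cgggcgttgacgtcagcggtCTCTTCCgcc
Eif3f, chr7:108934410-108934439, plus strand: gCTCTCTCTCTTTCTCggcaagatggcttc
Eif4b, chr15:102073768-102073797, plus strand: tcggacgccgcgccaCCCCCTCgcgctgct
Eif3a, chr19:60790669-60790698, minus strand: gcggcggcgctgccgccgcgagggaatcac
Eif4ebp2, chr10:61452645-61452674, minus strand: cgggacgaccgggcgagagcaggcgagttg
Eif4g1, chr16:20672722-20672751, plus strand: gctccgCCCTCTgcgccggtcacgtggggc
Eif5, chr12:111538096-111538125, plus strand: tgcatgcgagccaatgacaagagaagttgg
A run stood somewhere in the window for 5 of these 6 list members (83.3%), for 18 of the 50 members found in the table (36%) and for 9414 of 27025 genes (34.8%). Eef1d, Eef1g, Eif3e and Eif3h of the list are not among the 6, so that share is not one of the whole list. A run elsewhere in the window is not a tract at the start. The annotated start was itself a C with at least 4 more C or T after it for 1 of the 6 list members (16.7%), for 2 of 50 members (4%) and for 673 of 27025 genes (2.49%). Only the gene's own strand and the first listed start of each gene were searched, and an annotated start need not be the start used in these cells. A match is a description of the letters alone.

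The genes that act on these factors were read as a list of 42, all tested, of which 0 were called in either direction. Of these, 30 differences were positive and 12 negative, with a median of 0.12. Over all 13084 tested genes 8000 were positive and 5084 negative, with a median of 0.09. The median of the 42 was 0.00 after the length correction. Of 10 genes of the eIF2 stress response, 7 were positive, with a median of 0.19 that was 0.06 after the length correction. Atf4, the transcription factor translated when eIF2 is phosphorylated, stood at 176 ± 32.1 (SD) TPM in control and 163 ± 28.6 TPM on PLX5622, and Ddit3, its target, at 82.6 ± 11.4 and 76.4 ± 16.8 TPM. Both overlapped between groups. Of the kinases, named after their values were seen, Eif2ak3 stood at 7.36 ± 3.18 and 11.5 ± 0.52 TPM and Eif2ak4 at 3.61 ± 0.62 and 4.93 ± 0.32 TPM. All PLX5622 libraries were above the controls for both, as for 19.4% of all genes. Their differences of 0.65 ± 0.24 and 0.37 ± 0.15 (SE) did not pass the test (limma adjusted p = 0.205 for each). Those differences were 0.45 and 0.15 after the length correction, and 0.38 and 0.27 without control 1. The kinases Eif2ak1 and Eif2ak2 had differences of 0.12 ± 0.12 and 0.29 ± 0.15 (SE), with overlapping groups. Of 13 genes of mTORC1 and MNK signalling, 12 were positive, with a median of 0.17. After the length correction 7 were positive and 6 negative, with a median of 0.07. Rheb, the activator of mTORC1, stood at 179 ± 12.2 and 185 ± 11.1 TPM, and Pdcd4, an inhibitor of eIF4A, at 98.8 ± 9.9 and 99.6 ± 2.5 TPM.

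All 7 genes of poly(A)-binding proteins and cap-complex partners were positive, with a median of 0.11 that was 0.03 without control 1, and 0 passed the test. After the length correction 3 were positive and 4 negative, with a median of -0.00. Paip2, which displaces poly(A)-binding protein, stood at 115 ± 7.8 (SD) TPM in control and 124 ± 11 TPM on PLX5622, and the helicase Ddx3x at 67.5 ± 8.9 and 73.3 ± 10.8 TPM. The 8 genes of release, recycling and reinitiation had 4 of each sign. Denr and Mcts1, partners in reinitiation, stood at 55.7 ± 2.6 and 49.6 ± 1.9 TPM and at 47.8 ± 3.6 and 41.5 ± 2.7 TPM. The list of eIF5A hypusination and other genes had 4 of 4 negative, with a median of -0.24. Of these Dohh, which completes hypusine on eIF5A, stood at 48.8 ± 6.2 and 36.9 ± 4.4 TPM, and Tpt1, whose mRNA is a terminal oligopyrimidine mRNA in human cells, at 1112 ± 326 and 875 ± 147 TPM.

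The count of calls rested on control 2. Without that library limma called 2600 of 13081 genes higher (19.9%) and 1154 lower (8.82%), and among the 60 members 11 higher (18.3%) and 12 lower (20%). The higher ones were Eif4ebp2, Eif5, Eif2b5, Eif4g1, Eif3j1, Eif3a, Eif4g3, Eif4h, Eif4g2, Eef2k and Eif1ax. The lower ones were Eef1b2, Eif3e, Eif3h, Eef1d, Eef1g, Eif3m, Eif6, Eif3k, Eif3f, Eif4ebp1, Eif3g and Eif1b. That fit kept only control 1 and the doubtful control 3 as controls. Their member values correlated with relative length at -0.541 and -0.466, against 0.533 in the control 2 left out. Without control 2 the members' differences and log2 relative length had a Pearson r of 0.517, against 0.461 with all libraries. These calls are not corrected for length. With control 3 and PLX5622 3 both left out, 0 members were called, and the differences were 0.55 for Eif3a, -0.44 for Eif3k, 0.55 for Eif4g2 and 1.13 for Eif4ebp2.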

How the data were processed

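Polyadenylated RNA from the anti-HA pulldown was sequenced as non-stranded libraries, per the labels' protocols, so reads of a gene and its antisense partner cannot be told apart. The submitters' processing notes name the build mm39, R 4.1.0, DESeq2 1.32.0, STAR 2.7.10a and featureCounts with Subread 2.0.1. For annotation, gene lengths, filters and reads that match several places, the settings are not given in the sources used. Copies with near-identical sequence (Eef1a1 and its pseudogenes, Eif3j1 and Eif3j2, Eif4a3 and Eif4a3l1) are therefore uncertain. The authors deposited TPM per gene and library, and a comparison table with a mean normalised signal per gene, a log2 fold change with its SE, a Wald score, and p-values, raw and adjusted, per the file headers. That table does not name its numerator; negative is read as lower on PLX5622 because all 13 microglial markers are negative there.

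From the TPM, log2(TPM + 1) was fitted with limma 3.58.1 in R 4.3.3 (empirical Bayes with a mean-variance trend, two-sided, Benjamini-Hochberg over all genes averaging 1 TPM or more, threshold 0.05), after a test on simulated data. Fold changes on this scale understate the change of low genes. Paralog ratios had exact permutation tests. Replicates are labelled as biological, and the p-values measure the spread between these libraries. Relative length was available for 60 of 60 tested members. Members and lists were chosen with earlier results of these data known. Per role, genes named are the 3 most abundant, the largest and smallest difference, any called gene, the paralog pairs and genes at 0; others (Eif4g1, Eif3j1, Eef1b2, Eef1d and those listed by name in counts) were picked with their values in view. The 15 alternatives are other pseudocounts (0.1), no filter or 5 TPM, size-factor scaling, no trend, a replicate block, each library left out, control 3 and PLX5622 3 left out, and the length correction with and without the block. Promoter windows come from a RefSeq table of GRCm38.p6; no coordinates were converted to mm39.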

Additional observations from a re-analysis of the deposited data

How the results depend on the processing

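Results by label were refitted under 15 other settings. The count of members called, 0 higher and 0 lower, ran from 0 to 11 higher and from 0 to 12 lower when 1 library was left out, and control 2 alone gave the calls. The median member difference of -0.06 was -0.14 under size-factor scaling, which moved the median of all genes from 0.09 to 0.01, and 0.016 without control 3 and PLX5622 3 together; with 1 library left out it ran from -0.078 to -0.0011. Of the 30 tested genes named by rule, the length correction, with or without the replicate block, turned the sign of Eef1akmt1 (0.12), Eif1 (0.065), Eif2b2 (0.038) and Eif5a2 (-0.055). Size-factor scaling turned Eef1akmt2 (-0.030), and leaving out control 3 and PLX5622 3 turned Eif2b2 (0.0038), Eif4a1 (0.015) and Eif5a (0.052). With 1 library left out, Eif2b2 ran from -0.13 to 0.011, Eif5a from -0.094 to 0.017 and Eif4a2 from -0.016 to 0.25. The cause was not tested. The replicate block called 0 members in either direction. Same-numbered libraries did not deviate together (correlations of -0.03, -0.27 and -0.15), and 0 of 6 correlated best with their own number. With 3 libraries a group, and control 3 and PLX5622 3 possibly exchanged, this cannot tell whether the numbers pair samples. TPM give no depth, and 3 libraries a group allow no exact p under 0.1.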
